A study of Rattus norvegicus with 56 samples.

Results

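Proteasome genes were taken as the genes with a single symbol on the array, updated through the Entrez gene ID, that begins with Psm, a class letter a to g and a number. There were 43 of them, read by 46 of the 15866 probe sets tested, among 10411 genes in all. Where a gene had several probe sets, the one with the highest mean over the 24 arrays of individual rats was used. By role, 7 belonged to the alpha ring and 6 to the beta ring of the 20S core, 3 were exchange catalytic subunits, 5 were ATPases and 9 were other subunits of the 19S particle. Assembly factors numbered 4 for the core and 3 for the 19S particle, 3 genes encoded activators and 1 an inhibitor. The remaining 2, Psmc3ip and Psme3ip1, fit the letters of the rule but encode proteins that interact with a subunit, and Psmc3ip is known as a factor of meiotic recombination. Of the genes of these classes, Psma8, Psmb11, Psmc6, Psmd12 and Psmd14 had no probe set with a single symbol. Psmb6 and Psme3 were read by probe sets listed with other genes as well and are not analysed here. Psma3 has a near-identical copy, Psma3l, so its values are uncertain.

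The series holds 56 arrays of mammary gland RNA, all taken from female rats of the inbred Wistar Furth strain. The groups were 12 rats given what the labels call RXR treatment and 12 control rats. RXR commonly stands for the retinoid X receptor, a nuclear receptor; the sources used here name no compound or dose. Of the treated rats 6 were in diestrus and 6 in proestrus or estrus, against 9 and 3 of the control rats. The labelled targets of these rats were then mixed: 6 treated and 6 control mixtures held 2 rats, 4 treated and 4 control mixtures held 3, and 1 of each held all 12 and was read on 4 arrays. The title and description of all 4 arrays give the mixture of 12, while the source label of 3 of them in each group names an individual rat; the titles were followed here. Rat 3 of each group had 2 further arrays. Pools therefore repeat the same rats and are no independent evidence. Precision is limited by how many arrays there are. The p-values rest on the spread between these rats or, for pools of 2 and 3, between mixtures of them. The deposited values are on a log2 scale, with array medians between 7.4 and 7.48. They are compared here within a probe set, since the brightness of different probe sets does not rank the amounts of their transcripts.

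The proteasome degrades proteins that carry ubiquitin. Its 20S core is a barrel of alpha rings, which gate the entry, and beta rings, which hold the proteolytic sites, while the 19S particle on its ends binds ubiquitin, removes it and unfolds the substrate with a ring of ATPases. Under interferon the catalytic subunits Psmb5, Psmb6 and Psmb7 can be replaced by Psmb8, Psmb9 and Psmb10, which gives the immunoproteasome that prepares peptides for MHC class I. Activators such as the complex of Psme1 and Psme2 bind the ends of the core in place of the 19S particle.

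Promoter sequences of 4 genes are printed because the results turn on them: Psmd8 had the largest treatment difference of the 43 genes, and the exchange catalytic subunits Psmb8, Psmb9 and Psmb10 varied together between rats. They come from RefSeq on the build GRCr8 and cover 250 bases before to 50 bases after the annotated start, at chr1:93608640-93608939 (minus strand), chr20:4656982-4657281 (minus strand), chr20:4668750-4669049 (plus strand) and chr19:50743243-50743542 (minus strand). Capitals mark matches to the motifs searched.
Psmd8: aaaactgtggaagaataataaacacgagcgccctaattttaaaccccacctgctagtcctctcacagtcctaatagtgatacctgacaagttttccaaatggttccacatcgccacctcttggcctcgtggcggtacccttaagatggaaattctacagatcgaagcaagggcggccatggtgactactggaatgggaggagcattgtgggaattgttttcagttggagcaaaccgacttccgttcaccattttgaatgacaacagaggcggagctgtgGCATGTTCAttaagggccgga
Psmb8: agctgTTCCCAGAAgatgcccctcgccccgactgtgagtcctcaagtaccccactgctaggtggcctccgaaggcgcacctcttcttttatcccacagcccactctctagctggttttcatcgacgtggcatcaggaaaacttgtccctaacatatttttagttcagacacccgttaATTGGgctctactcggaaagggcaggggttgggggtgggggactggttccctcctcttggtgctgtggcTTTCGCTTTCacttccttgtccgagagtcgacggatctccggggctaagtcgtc
Psmb9: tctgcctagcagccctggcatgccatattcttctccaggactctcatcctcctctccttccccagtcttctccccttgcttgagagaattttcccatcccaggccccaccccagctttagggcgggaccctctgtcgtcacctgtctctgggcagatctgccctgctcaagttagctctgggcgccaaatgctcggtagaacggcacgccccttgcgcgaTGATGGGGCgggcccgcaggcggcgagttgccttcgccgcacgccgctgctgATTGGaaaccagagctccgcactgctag
Psmb10: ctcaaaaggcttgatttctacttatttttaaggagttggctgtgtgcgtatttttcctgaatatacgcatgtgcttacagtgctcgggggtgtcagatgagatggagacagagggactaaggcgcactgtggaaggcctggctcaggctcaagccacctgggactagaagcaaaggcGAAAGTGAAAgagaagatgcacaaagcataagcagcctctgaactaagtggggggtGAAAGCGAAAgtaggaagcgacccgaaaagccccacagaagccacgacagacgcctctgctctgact
The motifs, searched on both strands, were the antioxidant response element core TGANNNNGC, the CCAAT box, the interferon-stimulated response element core GAAANNGAAA and the gamma-interferon activation site core TTCNNNGAA. The interferon-stimulated core of Psmb8 begins 4 bases before the start and runs across it, and Psmb10 holds this core at 2 positions that begin 73 and 17 bases before its start. Psmb8 also holds an activation site core and a CCAAT box, which begin 245 and 73 bases before its start. Psmb9 holds an antioxidant core and a CCAAT box, and Psmd8 an antioxidant core after the start. Promoters were found for 41 of the 43 genes. In them the interferon-stimulated core occurred in 7 (17.1%), against 3.92% of all 33469 promoters in the table. These were Psma4, Psmb3, Psmb8, Psmb10, Psmd7, Psme2 and Psmg4. The antioxidant core occurred in 53.7% against 40.5% of all, the CCAAT box in 53.7% against 37.5%, and the activation site core in 7.32% against 8.87%. There were 4 overlaps between matches of different motifs in these promoters, and 7 promoters held no match. A match describes the letters of this window and shows no binding.

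Treated glands differed from control glands at 8 of the 43 proteasome genes, with 7 higher and 1 lower. Psmd8 rose by 0.52 ± 0.06 log2 (SE), a 1.43-fold difference, and Psmc1 and Psmb7 rose by 0.28 ± 0.05 and 0.27 ± 0.05. Psme1 fell by 0.17 ± 0.04. With limma and an adjusted p of at most 0.05 over all probe sets, the 8 calls were 18.6% of the genes, against 18.1% of all probe sets, so the share called was near the background. By direction, 16.3% were higher, against 8.46% of all probe sets, and 2.33% were lower, against 9.59%. Of the 43 differences 33 were above 0 (76.7%), against 48.5% of all probe sets, and their median was 0.07 log2, against -0.0025 for all. The differences ran between -0.17 and 0.52 log2. Many of the 43 genes moved together within a rat, so their signs are not independent, here and in the comparisons below. The shares above 0 for probe sets of similar brightness are not given. Stage was unequal between these groups, and in diestrus rats alone 27 of the 43 were above 0 (62.8%), with a median of 0.01 log2.

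**Figure D1:**
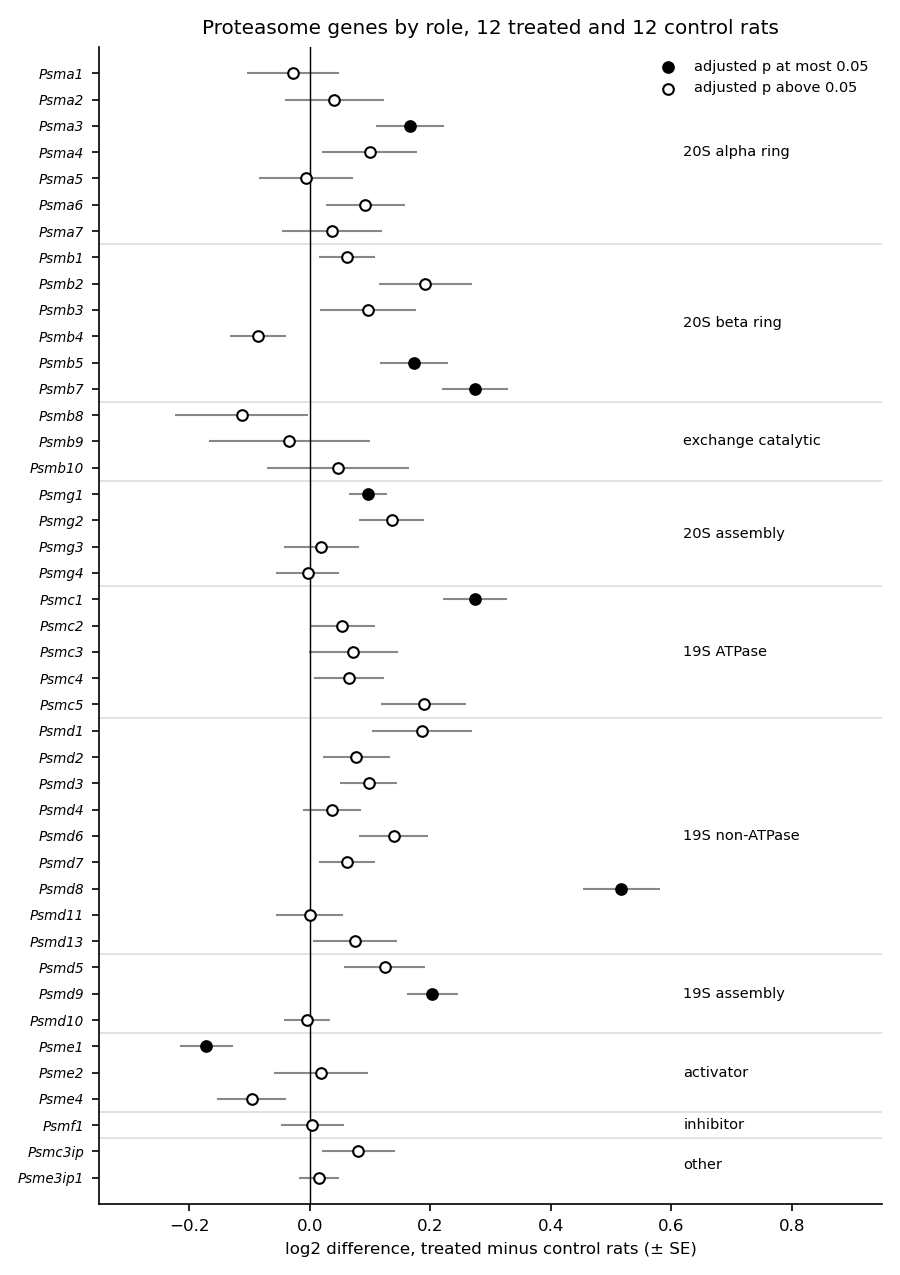
Difference in log2 value between 12 treated and 12 control rats for each of the 43 proteasome genes, grouped by role, with the standard error as a line; filled points have an adjusted p of at most 0.05 in limma. Psmd8 stands farthest to the right at 0.52, and Psme1 is the only filled point left of 0.

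Leaving out single rats moved the count of 8 calls past 1.5-fold for 2 control rats: 5 genes were called without control rat 14 and 13 without control rat 15. With oestrous stage in the model 5 genes were called, and 2480 of all 15866 probe sets. The calls of Psmd8, Psmc1, Psmb7, Psmd9 and Psme1 were kept whichever of the 24 rats was left out. Those of Psma3, Psmb5 and Psmg1 were lost in 13, 8 and 9 of the 24 cases, with adjusted p up to 0.0724, 0.0614 and 0.0609.

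Among the non-ATPase subunits of the 19S particle, 1 of 9 was called (11.1%, against 18.1% of all probe sets). The role classes are small, so their shares are coarse and are not read as results about a class. Psmd8, a subunit of the lid that sits over the ATPase ring, had its lowest value in treated rats at 9.60, its median at 9.87 and its highest at 10.20, against 9.12, 9.30 and 9.62 in control rats. The treated values lay above every control value in 11 of 12 rats, and only treated rat 8 fell within the control range. The means were 9.87 ± 0.17 in treated and 9.35 ± 0.16 in control rats (SD, n = 12 each; limma, adjusted p = 4.14e-06). The other subunits were not called. Psmd6 had a difference of 0.14 ± 0.06 (SE; limma, adjusted p = 0.101), Psmd1, the large scaffold subunit, 0.19 ± 0.08 (0.130) and Psmd3 0.10 ± 0.05 (0.163). Psmd4, a ubiquitin receptor of the particle, had 0.04 ± 0.05 (0.689). Psmd2, Psmd7 and Psmd13 lay between 0.06 and 0.08. The probe set used for Psmd11 had the same mean in both groups, 10.15, while its other probe set gave 0.13 ± 0.05 (0.0715), so neither was called and they differed in size.

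Of the 5 ATPases 1 was called (20%, against 18.1% of all probe sets). All 5 had a difference above 0, against 48.5% of all probe sets. Psmc1, one of the ATPases whose tail opens the gate of the core, had 8.89, 9.03 and 9.38 as its lowest, median and highest value in treated rats, against 8.6, 8.73 and 9.04 in control rats. The ranges overlapped: 5 of 12 treated rats lay above all control rats and all 12 lay above the control mean. The means were 9.03 ± 0.13 in treated and 8.76 ± 0.14 in control rats (SD, n = 12 each; limma, adjusted p = 0.00052). Psmc5 had a difference of 0.19 ± 0.07 (SE) that missed the threshold (limma, adjusted p = 0.0625), with 11 of 12 treated rats above the control mean. Psmc2, Psmc3 and Psmc4 lay between 0.05 and 0.07.

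In the beta ring 2 of 6 genes were called (33.3%, against 18.1% of all probe sets). Psmb7, the subunit with trypsin-like activity, had 10.58, 10.76 and 10.93 as its lowest, median and highest value in treated rats, against 10.24, 10.46 and 10.73 in control rats. Here 7 of 12 treated rats exceeded every control rat, and 9 of 12 control rats lay below every treated rat. Its means were 10.76 ± 0.11 in treated and 10.49 ± 0.16 in control rats (SD, n = 12 each; limma, adjusted p = 0.000647). Psmb5, the subunit with chymotrypsin-like activity, had 11.16, 11.34 and 11.46 in treated rats, against 10.83, 11.17 and 11.40 in control rats. All 12 treated rats lay above the control mean although the ranges overlapped. Psmb5 rose by 0.17 ± 0.06 (SE; limma, adjusted p = 0.033), and its means were 11.32 ± 0.10 in treated and 11.15 ± 0.18 in control rats (SD, n = 12 each). Psmb2, a structural subunit of the ring, had a difference of 0.19 ± 0.08 that missed the threshold (limma, adjusted p = 0.0887). The other structural subunits Psmb1, Psmb3 and Psmb4 had 0.06, 0.10 and -0.09, none of them called. For Psmb4 11 of 12 treated rats lay below the control mean and 6 below every control rat. After quantile normalization it was called lower, at -0.14 (adjusted p = 0.0122 by limma).

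In the alpha ring 1 of 7 genes was called (14.3%, against 18.1% of all probe sets). Psma3 rose by 0.17 ± 0.06 (SE; limma, adjusted p = 0.0389), with means of 8.59 ± 0.11 in treated and 8.42 ± 0.17 in control rats (SD, n = 12 each). Its lowest, median and highest values were 8.40, 8.61 and 8.75 in treated rats, against 8.18, 8.44 and 8.77 in control rats, and control rat 15 was the highest of all 24. The other 6 alpha subunits had differences between -0.03 for Psma1 and 0.10 for Psma4.

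Assembly factors were called once in each class, 1 of 3 for the 19S particle (33.3%) and 1 of 4 for the core (25%), against 18.1% of all probe sets. Psmd9, a chaperone of the ATPase ring that is not part of the finished particle, rose by 0.20 ± 0.04 (SE; limma, adjusted p = 0.00117). Its lowest, median and highest values were 8.10, 8.29 and 8.48 in treated rats, against 7.97, 8.13 and 8.26 in control rats. Treated rats exceeded all control rats in 7 of 12 cases. Psmd5 and Psmd10, chaperones of the same step, had 0.12 ± 0.07 (adjusted p = 0.231) and -0.01 ± 0.04 (0.957). Psmg1, which guides the alpha ring together with Psmg2, rose by 0.10 ± 0.03 (SE; limma, adjusted p = 0.0321), with 9.18 ± 0.06 in treated and 9.08 ± 0.08 in control rats (SD, n = 12 each). Psmg2 missed the threshold at 0.14 ± 0.05 (limma, adjusted p = 0.084). Psmg3 and Psmg4, which form another pair of core chaperones, had 0.02 ± 0.06 and -0.0033 ± 0.05.

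Among the activators Psme1 fell, and on the deposited values of individual rats it was the only proteasome gene called lower. Its lowest, median and highest values were 10.53, 10.79 and 10.93 in treated rats, against 10.86, 10.95 and 11.21 in control rats. All 12 treated rats lay below the control mean and 8 of them lay below every control rat. The means were 10.79 ± 0.12 in treated and 10.96 ± 0.10 in control rats (SD, n = 12 each; limma, adjusted p = 0.0068). Psme2, its partner in the activator ring, had a difference of 0.02 ± 0.08 (SE; limma, adjusted p = 0.919). Psme4, a large nuclear activator, had -0.10 ± 0.06 (0.291), and its other probe sets gave -0.07 and -0.15, neither called. Psmf1, an inhibitor of the isolated core, had 0.0042 ± 0.05 (0.974).

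**Figure D2:**
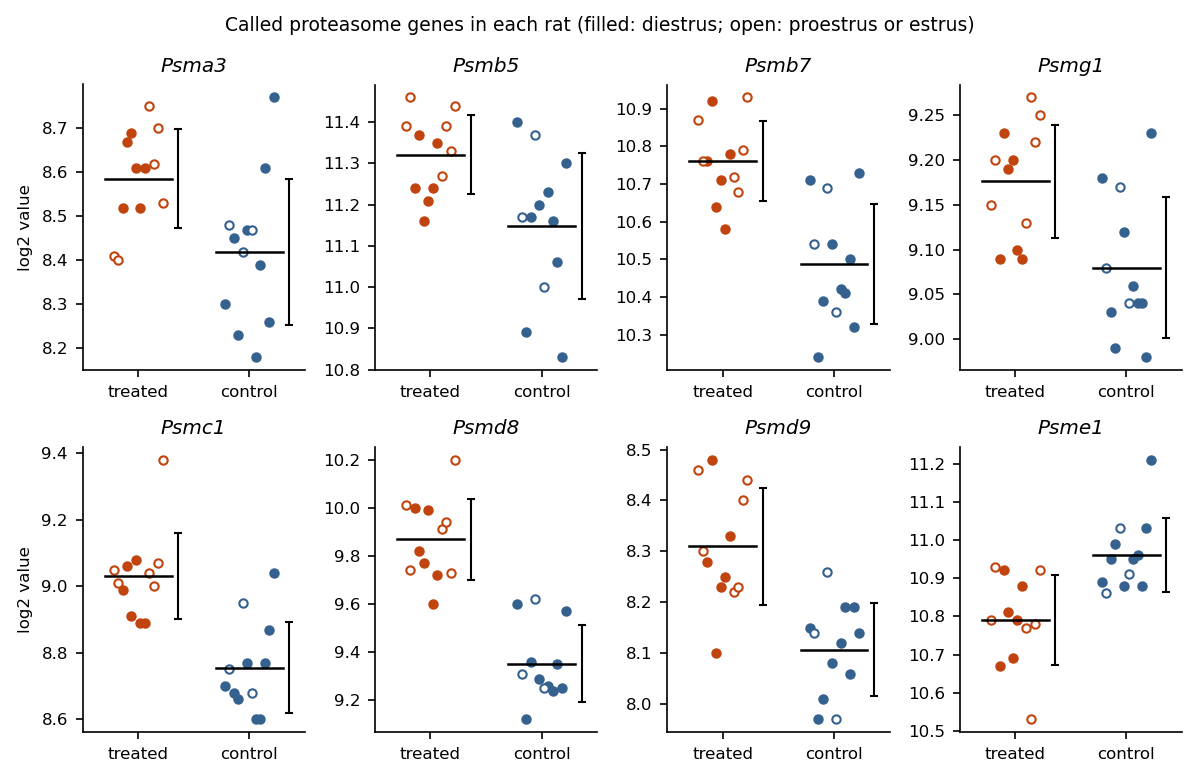
Log2 value of the 8 called proteasome genes in each rat, treated left and control right (12 each), with the mean as a line and the SD as a bar beside it; filled points are rats in diestrus, open points rats in proestrus or estrus. Psmd8 shows the widest separation, with 11 of 12 treated rats above all control rats, while Psma3 and Psmb5 overlap broadly.

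The exchange catalytic subunits were not called, and they varied more between rats than any other proteasome gene. Psmb8 had 9.15, 9.66 and 10.07 as its lowest, median and highest value in treated rats, against 9.43, 9.75 and 10.17 in control rats, with means of 9.61 ± 0.34 and 9.73 ± 0.21 (SD, n = 12 each). The difference was -0.11 ± 0.11 (SE; limma, adjusted p = 0.562), and 4 treated rats lay below every control rat. Psmb9 had 8.80, 9.39 and 9.88 in treated rats, against 8.94, 9.39 and 10.07 in control rats, with a difference of -0.03 ± 0.13 (limma, adjusted p = 0.912). Psmb10 had 8.48, 9.06 and 9.45 in treated rats, against 8.57, 8.98 and 9.45 in control rats, with a difference of 0.05 ± 0.12 (limma, adjusted p = 0.859). The treated ranges of Psmb8 and Psmb9 reached lower than the control ranges, and control rat 15 held the highest value of Psmb8 and Psmb9 and shared that of Psmb10. Their SD within groups was 0.29 for Psmb8, 0.31 for Psmb10 and 0.35 for Psmb9, against a median of 0.15 for all 43 genes. Repeat arrays of 1 target had SDs of 0.10, 0.08 and 0.14 for Psmb8, Psmb10 and Psmb9. Over all 43 genes the SD between rats was 1.58 times that between repeat arrays in the median, against 1.19 times for all probe sets. The ratio for probe sets of similar brightness is not given here.

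Largely the same rats were low or high in Psmb8, Psmb9 and Psmb10. Treated rats 4, 7 and 11 had the lowest values of Psmb9 in their group, at 8.80, 8.91 and 8.88, and treated rats 3, 5, 9 and 14 the highest, at 9.80, 9.88, 9.87 and 9.79. In treated rats Psmb8 and Psmb9 correlated at r = 0.979 (Spearman's rho 0.949; permutation p = 1e-05 for each, the smallest that 100000 resamples can give; n = 12). In control rats r was 0.908 (rho 0.821, permutation p = 5e-05 and 0.00154, n = 12), and 0.761 without rats 14 and 15, the farthest from the median. For Psmb8 and Psmb10 r was 0.945 in treated rats (rho 0.914, permutation p = 5e-05 and 0.00015) and 0.834 in control rats (rho 0.732, permutation p = 0.0007 and 0.00872). For Psmb9 and Psmb10 r was 0.961 in treated rats (rho 0.93, permutation p = 1e-05 and 7e-05) and 0.931 in control rats (rho 0.939, permutation p = 2e-05 and 5e-05). Without the 2 rats farthest from the median of the gene named first these values were 0.949, 0.667, 0.959 and 0.938. These relations belong to a family of 22, and their adjusted p ran between 7.3e-05 and 0.0022 for r.

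**Figure D3:**
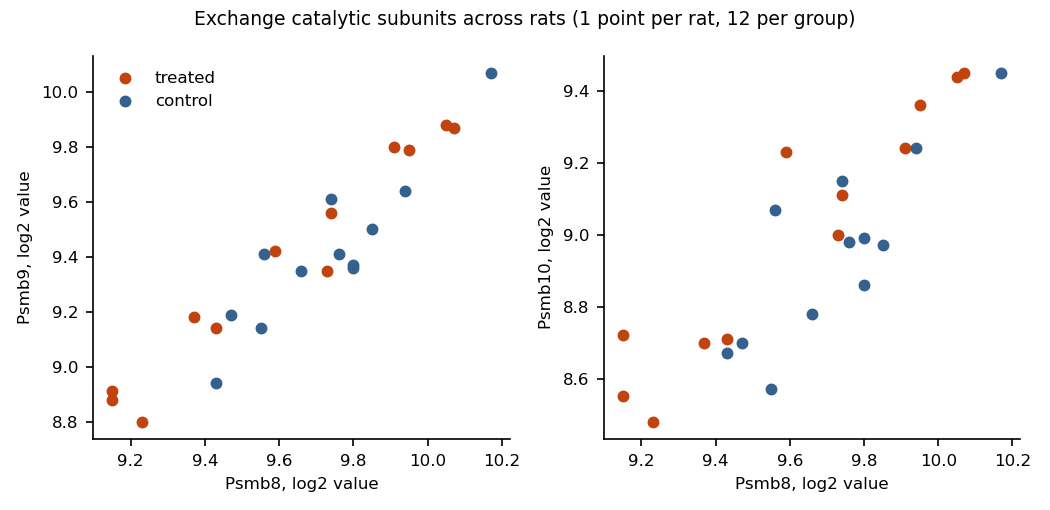
Log2 values of Psmb9 (left) and Psmb10 (right) against those of Psmb8 in each rat, 12 treated and 12 control. The points form one band in both groups, with treated rats at the lower end. Control rat 15 stands at the upper right at 10.17 for Psmb8, where the highest treated rat has 10.07.

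Other partner subunits covaried in part. Psma1 and Psma2, both subunits of the alpha ring, correlated at r = 0.811 in treated rats (rho 0.746, permutation p = 0.0012 and 0.00763, n = 12). In control rats r was 0.946 (rho 0.944, permutation p = 1e-05 and 3e-05, n = 12). Without the 2 rats farthest from the median of Psma1 these values were 0.708 and 0.932. The SD of Psma1 and Psma2 between rats was only 1.12 and 1.32 times that between repeat arrays of 1 target. Much of their spread was thus of the size of differences between repeat arrays. Other gene pairs of similar brightness were not compared. Psme1 and Psme2 correlated at r = 0.726 in treated rats (rho 0.759, permutation p = 0.00659 and 0.00575, adjusted 0.0161 and 0.0181, n = 12), and at 0.846 without rats 3 and 11. In control rats their r was 0.420 (rho 0.03, permutation p = 0.174 and 0.928, n = 12), and -0.29 without rats 3 and 15, so no relation was shown there. The difference between the groups was not tested. Psmc1 and Psmc2, both ATPases, did not pass the adjustment in either group (r = 0.50 in treated and 0.613 in control rats, permutation p = 0.0955 and 0.0338, adjusted 0.15 and 0.0676, n = 12 each). Their rho was 0.395 in treated and 0.534 in control rats (permutation p = 0.203 and 0.0767), and their r was 0.367 and 0.104 without the 2 rats farthest from the median of Psmc1.

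Lymphocytes carry much of the immunoproteasome of a tissue, so lymphocyte markers were set beside these genes. The summed level of the 10 of 13 markers measured lay between 9.45 and 9.61 log2 in treated rats and between 9.48 and 9.69 in control rats, and none of the 10 was called for treatment. The summed level of a list adds the linear values of its probe sets, so the brightest of them decide it, and it does not measure an amount of cells. Correlations of Psmb8, Psmb9, Psmb10, Psme1 and Psme2 with the mean of these markers, chosen after the data were seen, were all negative on the deposited values. They ran between -0.65 and -0.19, with an adjusted permutation p of 0.0471 for Psmb8 in control rats (r = -0.65; -0.45 without rats 14 and 15) and above 0.05 for the other 9. Its rho of -0.61 did not pass (adjusted permutation p = 0.0887). Without the 2 rats farthest from the median of Psme1, its value in control rats was 0.13. With each array centred on its median all stayed negative, between -0.74 and -0.64 in treated and between -0.69 and -0.44 in control rats. On residuals of the technical score the 5 values in treated rats ran between -0.80 and -0.67. In control rats they were -0.13 for Psmb8, -0.10 for Psmb9, -0.02 for Psmb10, 0.52 for Psme1 and -0.21 for Psme2. There the sign turned for Psme1, and the others stayed negative at smaller sizes. The part of other cell types in the variation between rats was not tested. In whole glands, fewer cells of a type and less RNA per cell cannot be told apart.

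Psmb5 and Psmb7 were called higher and their exchange forms were not called, and the balance within each array was also compared between groups. This comparison reuses the values behind those calls and is no separate evidence. The log2 value of Psmb8 minus that of Psmb5 averaged -1.71 ± 0.30 in treated and -1.42 ± 0.15 in control rats (SD, n = 12 each), a difference of -0.29. It passed a two-sided permutation test (p = 0.00604, adjusted over 2 pairs 0.0121), with 10 of 12 treated rats below the control mean and 6 below every control rat. For Psmb10 minus Psmb7 the means were -1.76 ± 0.31 in treated and -1.53 ± 0.13 in control rats (SD, n = 12 each), a difference of -0.23 (permutation p = 0.0289, adjusted 0.0289), with 8 of 12 treated rats below the control mean. Only the change of such a difference between groups can be read, since it joins 2 probe sets. The call of Psmb10 minus Psmb7 was lost without treated rat 4, 7 or 10, at -0.18, -0.19 and -0.21 (permutation p = 0.0571, 0.0547 and 0.0523), and after quantile normalization at -0.17 (0.0861). In diestrus rats alone neither pair passed (exact permutation p = 0.0731 and 0.106), with differences of -0.26 and -0.25. In pools of 2 the differences were -0.21 and -0.26 (exact permutation p = 0.0714 and 0.0325). In pools of 3 they were -0.31 and -0.22 (exact permutation p = 0.114 and 0.143).

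Stage differed between the groups, so treatment was also compared within each stage. In diestrus 4 of the 43 genes were called (9.30%, against 8.73% of all probe sets), namely Psmd8, Psmc1, Psmb7 and Psmd9. All 4 were higher, where 4.3% of all probe sets were higher and 4.43% lower. Of the 43 differences 27 were above 0 (62.8%), against 47.4% of all probe sets, with a median of 0.01 log2, against -0.005 for all. Psmd8 differed by 0.48 ± 0.08 (SE; limma, adjusted p = 0.0022), with 9.82 ± 0.16 in 6 treated and 9.34 ± 0.16 in 9 control rats (SD), and the groups met at 9.60. Psmc1, Psmb7 and Psmd9 differed by 0.23, 0.26 and 0.18 (adjusted p = 0.0348, 0.042 and 0.0462 by limma). The count was 1 without treated rat 4 or 7 or control rat 5, 6, 9, 11 or 12, and 2 without treated rat 5 or control rat 2. Psme1 had -0.18 ± 0.05 there and narrowly missed the threshold (limma, adjusted p = 0.0518).

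Outside diestrus 1 gene was called (2.33%, against 1.48% of all probe sets, of which 1.2% were higher and 0.284% lower). Of the 43 differences 36 were above 0 (83.7%), against 46.8% of all probe sets, with a median of 0.09 log2, against -0.005 for all. Psmd8 had 9.73, 9.74, 9.91, 9.94, 10.01 and 10.20 in the 6 treated rats, against 9.25, 9.31 and 9.62 in the 3 control rats, so the groups did not overlap. It differed by 0.53 ± 0.11 (SE; limma, adjusted p = 0.0492). The call of Psmd8 was lost without treated rat 2, 10, 11, 12 or 14 or control rat 3 or 10, and with each array centred on its median. Psmc1 differed by 0.30 ± 0.09 and Psmb7 by 0.26 ± 0.08, neither called (limma, adjusted p = 0.165 and 0.167).

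Stage itself, with treatment in the model, called none of the 43 genes and 0% of all probe sets (limma, smallest adjusted p of the 43 genes 0.999), and 2 of the 43 had an unadjusted p under 0.05, as did 581 of all 15866 probe sets, a share near that of the 43 genes. These were Psmg4, at 9.35 ± 0.09 in 9 rats outside diestrus and 9.23 ± 0.13 in 15 diestrus rats (SD), and Psmc3ip, at 7.02 ± 0.16 and 6.88 ± 0.14. Their differences with treatment in the model were 0.13 ± 0.05 and 0.13 ± 0.06 (SE). The next smallest p was that of Psmd3, with 0.09 ± 0.05. Of the 43 differences 38 were above 0 (88.4%), against 58.2% of all probe sets, with a median of 0.05 log2, against 0.01 for all. The treatment by stage interaction also called none, with 0% of all probe sets called. None of the 43 genes had an unadjusted p under 0.05 there, against 322 of all 15866 probe sets, a share so small that none among 43 genes is near it. Of the 43 interaction differences 38 were above 0 (88.4%), against 53.2% of all probe sets, with a median of 0.08 log2, against 0.0072 for all. These signs are not independent either. The smallest p were those of Psmd10, Psmd3 and Psmd1, whose treatment differences were larger outside diestrus by 0.14 ± 0.08, 0.16 ± 0.09 and 0.30 ± 0.17 (SE). Psmd1 had 7.75 ± 0.17 in treated and 7.39 ± 0.35 in control rats outside diestrus, and 7.54 ± 0.14 in treated and 7.48 ± 0.21 in control rats in diestrus (SD).

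In pools of 2, 3 of the 43 genes were called (6.98%, against 8.82% of all probe sets). All 3 were higher, where 5.15% of all probe sets were higher and 3.67% lower. These were Psmd8 at 0.47 ± 0.09 (SE; limma, adjusted p = 0.00529), Psma3 at 0.27 ± 0.07 (0.0309) and Psmc1 at 0.27 ± 0.08 (0.0403). Psmd8 averaged 9.93 ± 0.18 in treated and 9.46 ± 0.17 in control pools (SD, n = 6 each), with the lowest treated pool at 9.70 and the highest control pool at 9.74. The count was 1 without treated pool 1, 2 or 3 or control pool 2, 5 or 6. Of the 43 differences in pools of 2, 29 were above 0 (67.4%), against 47.7% of all probe sets, with a median of 0.04 log2. In pools of 3 only Psmd8 was called (2.33%, against 6.24% of all probe sets, of which 3.26% were higher and 2.97% lower), at 0.39 ± 0.09 (SE; limma, adjusted p = 0.0219). Its treated pools lay between 9.83 and 10.01 and its control pools between 9.33 and 9.74 without overlap (n = 4 each). That call was lost without treated pool 2 or 3 or control pool 1. Of the 43 differences in pools of 3, 23 were above 0 (53.5%), against 36.3% of all probe sets, with a median of 0.0075 log2, against -0.035 for all. In pools of 12, which have no test, Psmd8 lay between 9.91 and 10.01 in the 4 treated arrays and between 9.43 and 9.53 in the 4 control arrays. The treated arrays averaged 0.47 log2 higher for Psmd8, 0.26 for Psmc1, 0.20 for Psmb7 and 0.02 for Psmd9, and Psme1 averaged -0.11.

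**Figure D4:**
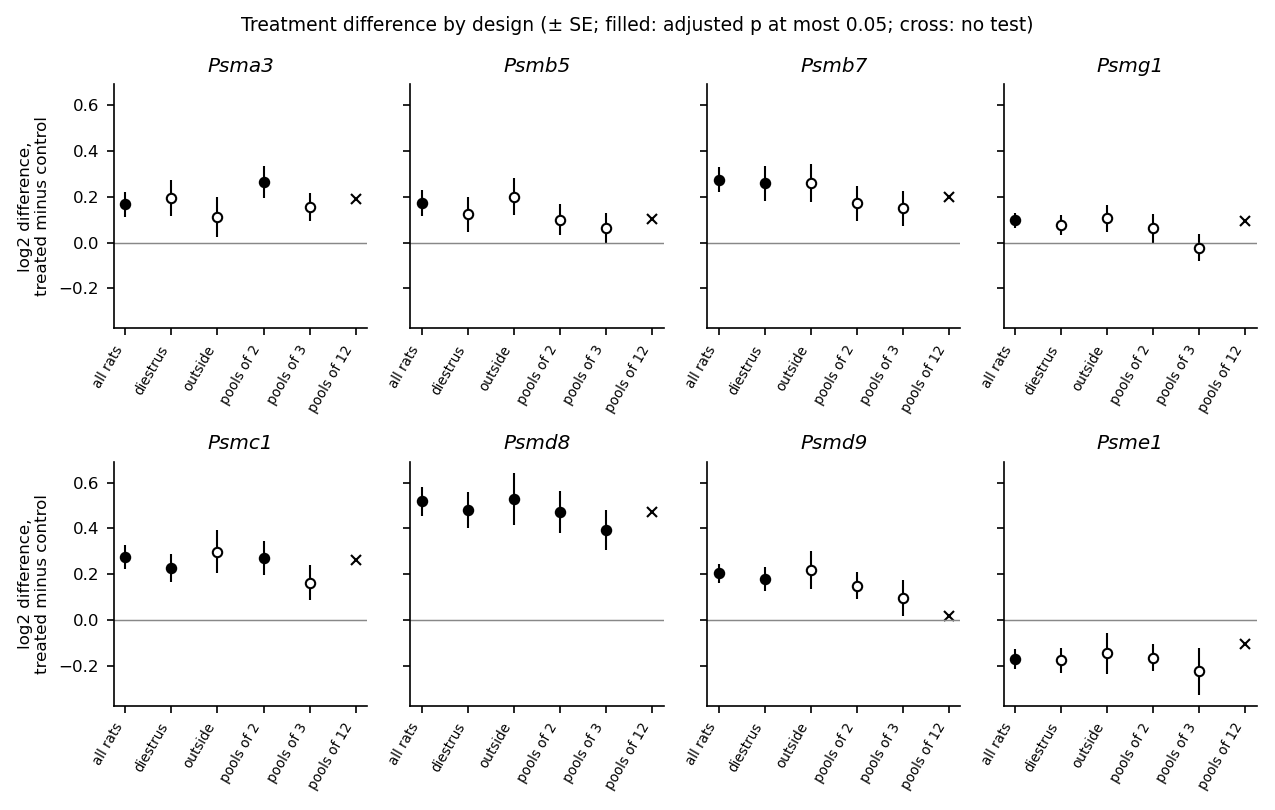
Treatment difference in log2 value (± SE) of the 8 called proteasome genes in all 24 rats, in diestrus rats, in rats outside diestrus and in pools of 2 and 3, with filled points for an adjusted p of at most 0.05 in limma; crosses show the pools of 12, which have no test. Psmd8 stays between 0.39 and 0.53 throughout, and Psmd9 is 0.02 in the pools of 12. All designs share the same rats.

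Many proteasome genes rose and fell together from rat to rat. Over the 43 genes, the median deviation from each gene's mean over the 24 rats was highest in treated rat 14, at 0.25 log2 with 40 of 43 genes above their mean, and in control rat 15, at 0.19 with 39 of 43. It was lowest in control rats 14 and 5, at -0.23 and -0.21, with 4 and 3 of 43 genes above their mean. The median deviation of all probe sets lay between -0.04 and 0.03 over the 24 arrays. That of probe sets of similar brightness is not given here, so the shared rise and fall is not shown to be particular to proteasome genes. A technical score placed each array on the axis along which repeat arrays of 1 target differed most, which held 57.3% of their variance. Of the 43 genes 37 were negative on this axis (86.0%), as were 44.2% of all probe sets and 86.7% of the 2408 probe sets of similar brightness, with a mean of 9 to 11. The score was -9.86 in treated rat 14 and -15.1 in control rat 15. It was -10.0 in treated rat 6, whose median deviation was -0.07. It was 3.86 in control rat 14 and -2.93 in control rat 5. The mean score was 0.62 ± 6.27 for the treated group and -0.62 ± 6.77 for the controls (SD, n = 12 each). With it as a covariate 9 proteasome genes were called, the 8 named above among them. In that fit 3303 of all 15866 probe sets were called, a share near that of the 43 genes.

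**Figure D5:**
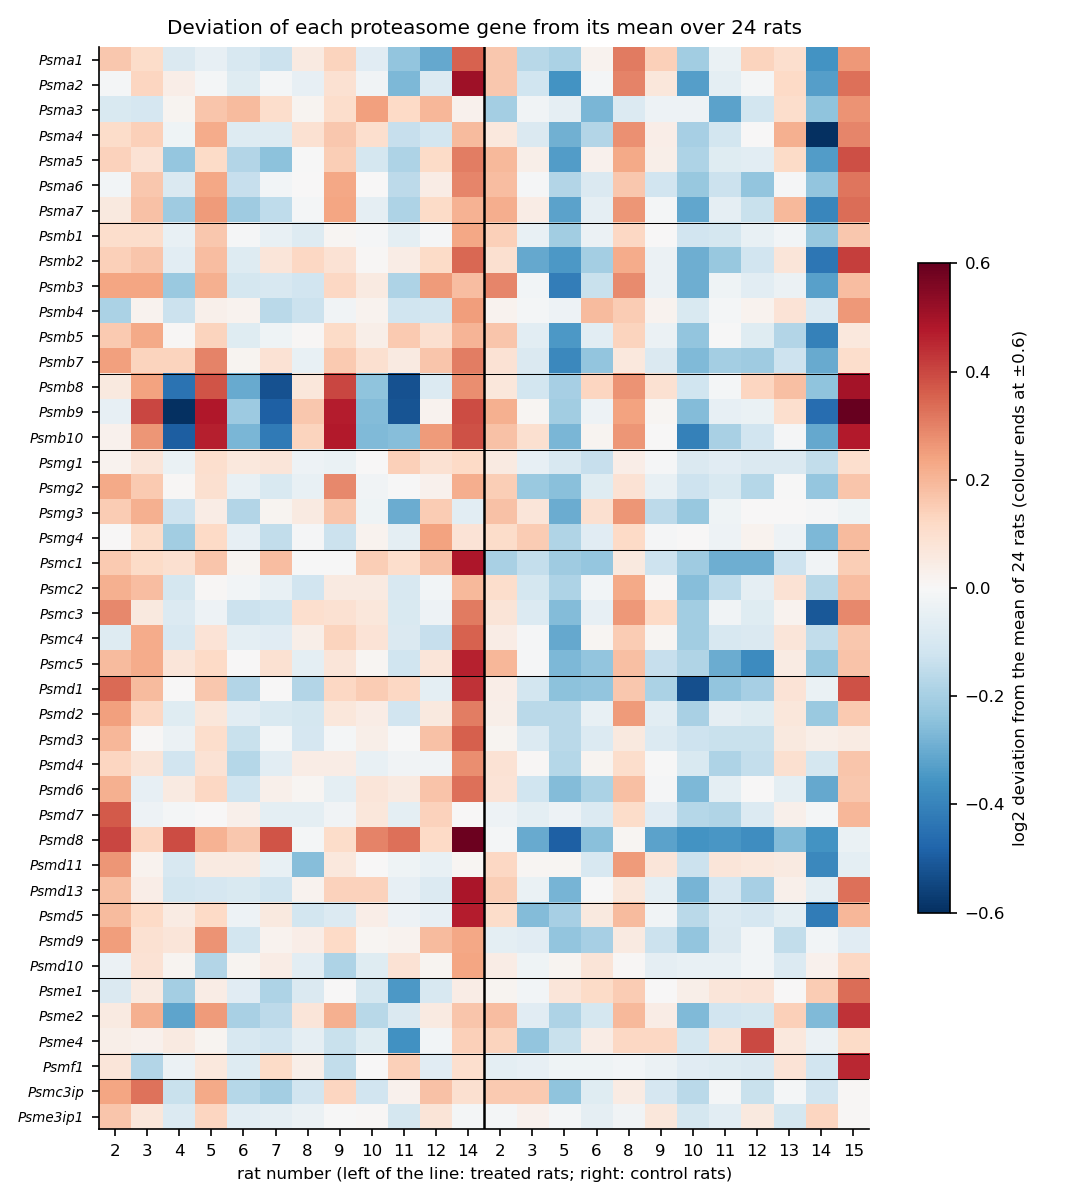
Deviation of the 43 proteasome genes (rows, by role) from their mean over 24 rats, in each rat (columns, treated left of the line, control right), in log2. Treated rat 14 and control rat 15 are red in most rows, control rats 5 and 14 blue, and the block of Psmb8, Psmb9 and Psmb10 is the most strongly coloured among treated rats.

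Pools read these genes somewhat higher than their own rats did. Against the log2 of the mean linear value of the member rats, the 43 genes lay 0.05 log2 higher in the median over the 12 pools of 2, against -0.0001 for all probe sets, and 0.09 higher over the 8 pools of 3, against 0.01. By pool the median ran between -0.06 and 0.18 in pools of 2 and between -0.03 and 0.17 in pools of 3. The pool with the largest excess, of treated rats 10 and 11, had a technical score of -15.0, and the pool with the lowest value, of treated rats 5 and 6, a score of -1.55. Its part in these values was not tested.

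Other genes of the ubiquitin and proteasome pathway were read from the same fit of individual rats, in which 8.46% of all probe sets were higher and 9.59% lower. The lists are short, and several of their counts lie near that background. Of 15 partners of the proteasome 1 was higher and 2 were lower: Adrm1, a ubiquitin receptor of the 19S particle, rose by 0.22 ± 0.06 (SE), while Ddi2, a protease that activates the proteasome regulator Nfe2l1, and Zfand5 fell by 0.24 ± 0.05 and 0.26 ± 0.06. Of 21 genes of ubiquitin and its activation only Huwe1, a ubiquitin ligase, was called, and it fell by 0.09 ± 0.03. Of 15 genes of extraction and of the control of proteasome genes 2 were higher and 3 lower. Nploc4 and Ufd1, cofactors of the Vcp unfoldase, rose by 0.24 ± 0.06 and 0.20 ± 0.06, while Foxo3, Nfya and Nfyc, all transcription factors, fell by 0.31 ± 0.06, 0.19 ± 0.06 and 0.13 ± 0.04. Of 14 genes of MHC class I presentation B2m, the light chain, rose by 0.13 ± 0.03, while RT1-S3 and Canx fell by 0.44 ± 0.08 and 0.13 ± 0.05. Of 17 genes of autophagy and muscle-type ubiquitin ligases 2 were higher, Ctsd, a lysosomal protease, by 0.74 ± 0.10 and Map1lc3a by 0.18 ± 0.04. The medians of these lists lay between -0.05 and 0.03 log2, against -0.0025 for all probe sets, and the highest adjusted p among the genes named was 0.0498 for Canx (limma).

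Cell type markers also differed between the groups, and their counts stand against the same background of 8.46% higher and 9.59% lower. Luminal epithelial markers were lower at 6 of 9 genes, with Epcam at -0.43 and Cdh1 at -0.39 among those with the smallest p, and their summed level lay between 13.27 and 13.73 log2 in treated rats and between 13.63 and 14.09 in control rats. Basal epithelial markers were higher at 1 gene, Oxtr at 0.90, and lower at 3 of 7 (summed level 12.40 to 13.12 in treated and 12.87 to 13.46 in control rats). Adipocyte markers were higher at 4 and lower at 1 of 6, with Lep at 1.01 and Cfd at -0.69 (13.61 to 14.42 in treated and 13.90 to 14.51 in control rats). Macrophage markers were higher at 2 and lower at 1 of 4, with Csf1r at 0.30 and Cd14 at -0.76 (11.61 to 12.02 in treated and 11.80 to 12.29 in control rats). Milk genes were lower at 2 of 5, Wap at -0.92 and Lalba at -0.89 (13.68 to 14.84 in treated and 14.20 to 15.25 in control rats). Vwf, at -0.28, was the call among 3 endothelial markers (9.66 to 10.64 in treated and 9.90 to 11 in control rats) and Myl1, at 0.21, among 6 skeletal muscle markers (8.04 to 8.36 in treated and 7.99 to 8.45 in control rats). None of 6 fibroblast markers was called (14.67 to 15.45 in treated and 14.13 to 15.29 in control rats). The part of these shifts in the values of the proteasome genes was not tested.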

How the data were processed

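Total RNA of each rat's mammary gland was made into labelled, fragmented cRNA, and targets of several rats were combined in equal amounts for the pools, per the labels' protocols. The authors deposited 1 log2 value per probe set and array; the log2 scale was inferred from the range of the deposited values, 4.12 to 14.08. The software, background correction and normalization are not stated in the sources used here, and nothing was renormalized. The 57 control probe sets of 15923 were left out. Symbols came from the platform annotation, updated through the Entrez ID to RefSeq genes for 12748 probe sets; 12783 had 1 symbol, 312 several, and 2771 were not listed.

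Each comparison was fitted with limma 3.58.1 in R 4.3.3 (lmFit, eBayes) on all 15866 probe sets, with Benjamini-Hochberg adjustment at 0.05. Single values and correlations were tested by permutation over rats (100000 resamples, or exact for small groups) with scipy 1.17.1 under Python 3.11.15. The script was tested on simulated data. Named with values were all called genes, the catalytic subunits, activators, inhibitor and assembly factors, the genes with the largest spread, the smallest p for stage and interaction, genes with several probe sets, and called genes of the pathway and marker lists. Other genes named with values were chosen after these were seen. The members and lists were chosen with earlier results of these data known. Alternatives covered normalization, a filter on dim probe sets, a trended prior, weighted arrays, the technical score, stage, a block by rat number, the threshold, the choice of probe set and leaving out each sample.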

Additional observations from a re-analysis of the deposited data

Results flagged for a closer look

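Of 99 groups of 4 to 10 samples examined for 11 genes, 4 held a sample far from the others, where chance gives about 1 in 20. In the treated pool of 12, replicate 1 had 9.25 log2 for Psmb9, while the other arrays of the same mixture lay between 9.63 and 9.68. In the control pool of 12, replicate 3 had 9.47 for Psmb9, with the others between 9.60 and 9.62. These low values were not particular to Psmb9. The treated array was also the lowest of its mixture for Psma7, at 11.04, and Psmb10, at 9.07, but not for Psmb5 or Psmb8. The control array was also the lowest for Psma2, at 9.59, Psmb8, at 9.65, and Psmc1, at 8.72, but not for Psmb5. By their titles, all arrays of a pool of 12 read the same mixture, but the source label of both arrays named here gives an individual rat. Among treated rats outside diestrus, rat 14 had 9.38 for Psmc1, with the others between 9.0 and 9.07. Among control rats in diestrus, rat 15 had 11.21 for Psme1, with the others between 10.88 and 11.03.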

How the results depend on the processing

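Calls among the 43 proteasome genes in individual rats numbered 8, beside 2865 calls among all 15866 probe sets. At a threshold of 0.01 they numbered 5, beside 1733 of all probe sets. With stage as a covariate they also numbered 5, beside 2480 of all, and 5 to 13 when single rats were left out. In diestrus the 4 calls, beside 1385 among all probe sets, became 2 with a trended, robust prior, beside 1254 of all. They became 1 at a threshold of 0.01, beside 513 of all, and 1 to 6 without single rats. Outside diestrus the 1 call, beside 235 among all probe sets, became 0 with each array centred on its median, beside 113 of all. It became 0 at 0.01, where 0 of all probe sets were called, and 0 to 1 without single rats. In pools of 2 the 3 calls, beside 1400 among all probe sets, became 1 at 0.01, beside 591 of all, and 1 to 4 without single pools. In pools of 3 the 1 call, beside 990 among all, became 0 at 0.01, beside 378 of all, and 0 to 1 without single pools. The cause was not tested beyond these settings. Among the 8 called genes, no alternative reversed a direction. Psmb5 was not called after quantile normalization (0.11, adjusted p = 0.221) or with stage (0.15, 0.0765), Psma3 not with stage (0.17, 0.0589), and Psmg1 not with stage (0.09, 0.0712) or the trended prior (0.10, 0.0656). After quantile normalization Psmb4 was called lower as well (-0.14, adjusted p = 0.0122 by limma), which made 6 calls higher and 2 lower. The sample labels do not say whether a shared rat number pairs a treated with a control rat. Over 10 shared numbers the deviations correlated at -0.39 to 0.36, over 0.1 in 5, and in each group 1 rat correlated best with its own number. Correlations over so few numbers cannot decide whether the rats were paired. With a replicate block over these 10 pairs 9 genes were called, all higher, beside 2535 of all 15866 probe sets. Psmd8, Psmc1, Psmb7, Psmd9 and Psma3 of the 8 were among them, and Psme1 (-0.133, adjusted p = 0.0612), Psmb5 (0.198, 0.0598) and Psmg1 (0.114, 0.0777) were not, so no gene was called lower. In the same rats without the block 12 genes were called, 11 higher and 1 lower, with all 8 among them, beside 2589 of all probe sets. In both fits the differences of Psmb8, Psmb9, Psmg4, Psma5 and Psma1 turned to 0.028, 0.145, 0.048, 0.091 and 0.024. None of these was called. Other reversals of genes not called were Psma7 after quantile normalization (-0.0373), Psmg4 with median centring (0.0017) and with rat 3 averaged over its arrays (0.00056), Psmd10 after quantile normalization (0.0012) and with the technical score (0.0034), and Psmb9 without single rats (-0.0795 to 0.0253, above 0 without treated rat 4, 7 or 11 or control rat 15). Psmb8 minus Psmb5 was -0.26 in diestrus, -0.21 in pools of 2 and -0.31 in pools of 3, and -0.32 to -0.24 without single rats. Psmb10 minus Psmb7 was -0.25 in diestrus, -0.22 in pools of 3 and -0.17 after quantile normalization, and -0.27 to -0.18 without single rats. Exact tests on 4 against 4 pools cannot go below p = 0.0286. Psmc1 with Psmc2 in control rats had r = 0.470 (permutation p = 0.124) on residuals of the technical score. Of all calls in pools of 3, 52.3% were higher as deposited, 66.4% with median centring and 61.0% after quantile normalization, and of those outside diestrus 80.9%, 86.7% and 75.3%. How the deposited values were normalized is unknown, which limits comparisons between arrays.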
